A study of Mus musculus with 16 samples.

Results

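The RNAs named as box H/ACA small nucleolar RNAs or as Cajal body RNAs were followed through small RNA libraries of mouse prefrontal cortex. The set comprised every row of the ncRNA table whose gene symbol begins with Snora or Scarna, 41 of 18488 rows, of which 39 were Snora and 2 were Scarna. The libraries came from 8 PS19 mice (labelled PS19+/-) and 8 WT mice, and per the methods of the study the WT animals were littermates. PS19 mice are heterozygous for the Prnp-MAPT*P301S transgene (JAX allele PS19Vle on a mix of B6 and C3H), in which the prion promoter drives human tau with a mutation of frontotemporal dementia. The 2 groups shared the mixed background, the age, which was under a year, and an equal number of males and females, but the labels do not give the sex of a library. Each library is a piece of bulk tissue from a separate mouse, so fewer cells of a type and less RNA per cell cannot be told apart. The question was whether guide RNA abundance differs between the genotypes.

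Small nucleolar RNAs guide the modification of other RNAs by base pairing. The box H/ACA family, named Snora in the mouse, folds into a pair of hairpins joined by a hinge (box H, ANANNA) and followed by the trinucleotide ACA close to the 3′ end. Together with the pseudouridine synthase dyskerin they direct the conversion of uridine to pseudouridine, chiefly in ribosomal RNA. The box C/D family, named Snord, carries the C box TGATGA and the D box CTGA and directs 2′-O-methylation. Guides that reside in Cajal bodies, named Scarna, act on the snRNAs of the spliceosome and may belong to either family or to both. Most of these RNAs are not transcribed on their own but are cut out of introns of host genes, many of which encode proteins of the ribosome and of translation.

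The names were checked against the sequences of GENCODE release M21 (GRCm38), in which all 41 symbols were found. The letters ACA lay within the last 9 bases of 37 of 41 (90.2%), against 7 of 98 named Snord transcripts (7.1%) and 744 of 1558 of all snoRNA and scaRNA transcripts (47.8%). The C box TGATGA occurred in 2 of 41 (4.9%), against 74 of the 98 Snord transcripts (75.5%), on the transcribed strand. Those 2 were Scarna9 and Scarna10, which also lack the ACA. The other rows without it were Snora44 and Snora81. The Scarna rows therefore lack the ACA at their annotated end and are described apart below. Annotated lengths ran from 70 bases (Scarna9) to 325 bases (Scarna10) with a median of 133.

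Of the 41, 38 lay inside a longer gene on the same strand and 31 inside a protein-coding gene. Among the Snora rows, 11 had a ribosomal protein gene as host, 7 another gene of translation or ribosome assembly, 11 another protein-coding gene and 7 a long non-coding RNA or small nucleolar RNA host gene (Snhg), while 3 had no host on the same strand. Where several hosts overlapped, a protein-coding one was taken, so Snora73a and Snora73b, which lie in both Rcc1 and Snhg3, count under Rcc1.

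The sequences that the following results turn on are shown from the annotation. In the 3 below, capitals mark the letters of mature miRNAs that RefSeq places inside the snoRNA. Snora36b lies at chr1:185242907-185243038 on the plus strand in an intron of Rab3gap2, a regulator of Rab GTPases. Snora34 lies at chr15:98519716-98519853 on the minus strand in an intron of Kansl2, a subunit of a histone acetyltransferase complex. Snora19 lies at chr19:60774330-60774461 on the minus strand in an intron of the translation initiation factor gene Eif3a.
Snora36b: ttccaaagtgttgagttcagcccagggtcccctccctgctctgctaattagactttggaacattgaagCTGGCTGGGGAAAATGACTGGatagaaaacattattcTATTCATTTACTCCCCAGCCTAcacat
Snora34: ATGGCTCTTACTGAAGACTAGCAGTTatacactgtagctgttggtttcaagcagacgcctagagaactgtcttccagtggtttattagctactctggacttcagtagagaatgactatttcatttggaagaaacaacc
Snora19: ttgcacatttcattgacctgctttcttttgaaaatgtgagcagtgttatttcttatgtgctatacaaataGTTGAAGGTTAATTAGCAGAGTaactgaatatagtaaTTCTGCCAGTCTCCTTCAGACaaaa

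In the following 4, capitals mark the ACA that stands 3 bases before the end. Snora41 (chr1:63179004-63179135, plus strand, inside the elongation factor gene Eef1b2) was the most abundant row. Snora61 (chr4:132310240-132310369, plus strand, inside Snhg12) is shown for its 2 separate levels over libraries. Snora35 (chrX:146994381-146994508, plus strand, in an intron of Htr2c, the serotonin receptor 2C) is known as a brain snoRNA. Snora52 (chr7:141448803-141448939, plus strand, inside Rplp2, a protein of the ribosomal stalk) had the smallest p-value between genotypes.
Snora41: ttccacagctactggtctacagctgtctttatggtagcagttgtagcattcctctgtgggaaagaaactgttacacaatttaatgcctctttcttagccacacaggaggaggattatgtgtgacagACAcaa
Snora61: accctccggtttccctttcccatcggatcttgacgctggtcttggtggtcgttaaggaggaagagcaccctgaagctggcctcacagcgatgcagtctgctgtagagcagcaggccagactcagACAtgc
Snora35: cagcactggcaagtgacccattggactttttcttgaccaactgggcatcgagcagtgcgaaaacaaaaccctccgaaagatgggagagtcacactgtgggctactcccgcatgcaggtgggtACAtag
Snora52: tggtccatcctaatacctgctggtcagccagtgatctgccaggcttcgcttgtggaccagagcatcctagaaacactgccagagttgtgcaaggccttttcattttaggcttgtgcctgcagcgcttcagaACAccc

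Scarna9 (chr9:15326264-15326333, minus strand, in an intron of Cep295) is shown because its letters are those of the C/D family. Capitals mark the C box TGATGA and the last D box CTGA.
Scarna9: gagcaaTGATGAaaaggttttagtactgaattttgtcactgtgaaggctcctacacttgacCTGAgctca

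Small RNA libraries recover short RNAs, and reads from a snoRNA of this length are likely to be pieces of it. The values are therefore levels of reads assigned to each row and not of intact guides. Values are normalized read counts, that is read counts divided by 1 size factor per library. Recovered reads came to 13.2 M to 23.1 M per library, of which 3406 to 6281 were assigned to the 41 rows. The brain miRNAs fixed as markers summed to 294000 or more in every library. Markers of other cells were also read in every library: the choroid plexus pair summed to 776 to 6598 in PS19 and 545 to 4152 in WT, muscle to 2253 to 14630 and 2867 to 10690, red blood cell to 731 to 1518 and 652 to 1411, and liver to 138 to 653 and 132 to 387, all of them without a marker at an unadjusted p under 0.05. Oligodendrocyte markers summed to 18520 to 52340 in PS19 and 13370 to 46510 in WT, with none at that threshold. Markers of microglia and other immune cells summed to 1722 to 5536 and 1571 to 4050. Of these, 1 of 3 tested passed that threshold, against 4.0% of the 6024 features tested. The markers miR-144-3p, miR-142a-3p, miR-142a-5p and miR-219a-5p were at 0 in some libraries. Their part in the snoRNA values was not tested.

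These RNAs were a small part of the libraries. Counting identical rows once, PS19 libraries gave the 41 rows 0.0253% ± 0.00191 (SD, n = 8) of all annotated signal, and WT libraries 0.0268% ± 0.00352 (SD, n = 8). The share was lowest in WT replicate 7 (0.0212%) and highest in WT replicate 4 (0.0337%), and the PS19 libraries lay within that range. Named Snord rows held more, with 6.54% ± 1.73 (SD, n = 8) in PS19 libraries and 6.4% ± 1.41 in WT libraries (SD, n = 8). Set against these, the H/ACA and Scarna rows came to 0.407% ± 0.0939 (SD, n = 8) of the Snord signal in PS19 libraries and to 0.440% ± 0.126 in WT libraries (SD, n = 8).

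The same gap was seen per length, where the median level was 16.1 normalized counts per 100 bases over the 41 rows and 1090 over 87 distinct Snord rows. None of the 41 (0) reached the Snord median, while 7 Snord rows lay at or under the median of the 41. Within each library the median Snord level was 34.4 to 79.7 times that of the 41. Snord rows are also shorter, with a median length of 84 bases against 133. The part of length in their recovery by small RNA libraries was not tested.

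Levels within the family covered a wide range. Per 100 bases they ran from 986 for Snora41 to 0.179 for Snora23, on average over the 16 libraries. By mean normalized count, 8 rows lay at 100 or above, 13 between 20 and 100, 17 between 5 and 20, and 3 under 5. Reads were found in all 16 libraries for 36 rows. Snora41, Snora36b and Snora34 together made up 43.1% to 64.1% of the signal of the 41 rows.

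Snora41 had a mean normalized count of 1302. It read 531 at the lowest, 1276 at the median and 1952 at the highest in PS19, and 382, 1494 and 2309 in WT. Snora36b followed with 416, 854 and 1081 in PS19 and 465, 732 and 987 in WT. Snora34 read 224, 466 and 604 in PS19 and 376, 532 and 595 in WT. The genotypes overlapped over most of their range in each of the 3.

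Per 100 bases of length, which puts rows on 1 scale, the order after these 3 (986, 581 and 354) was Snora3 (217, inside the ribosomal protein gene Rpl27a), Snora61 (184), Snora30 (148, in an intron of Srcap), Scarna9 (121), Snora7a (98.8, inside Rpl32), Snora44 (80.7), Snora28 (75.8, inside the initiation factor gene Eif5) and Snora68 (70.1). Scarna10 fell to 28.2 because of its length, with a mean normalized count of 91.6. The steps from Snora36b to Snora34 and from Snora34 to Snora3 were larger than the SD over libraries of either row, while the step from Snora41 to Snora36b and each step from Snora3 down to Snora68 were smaller. The coefficient of variation within a group had a median of 34.4% in PS19 and 37.6% in WT over the 38 rows with a mean of at least 5. It was smallest for Snora64 in PS19 (13.2%) and Snora34 in WT (13.6%), and highest for Snora35 in both (80.4% and 139%).

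**Figure D1:**
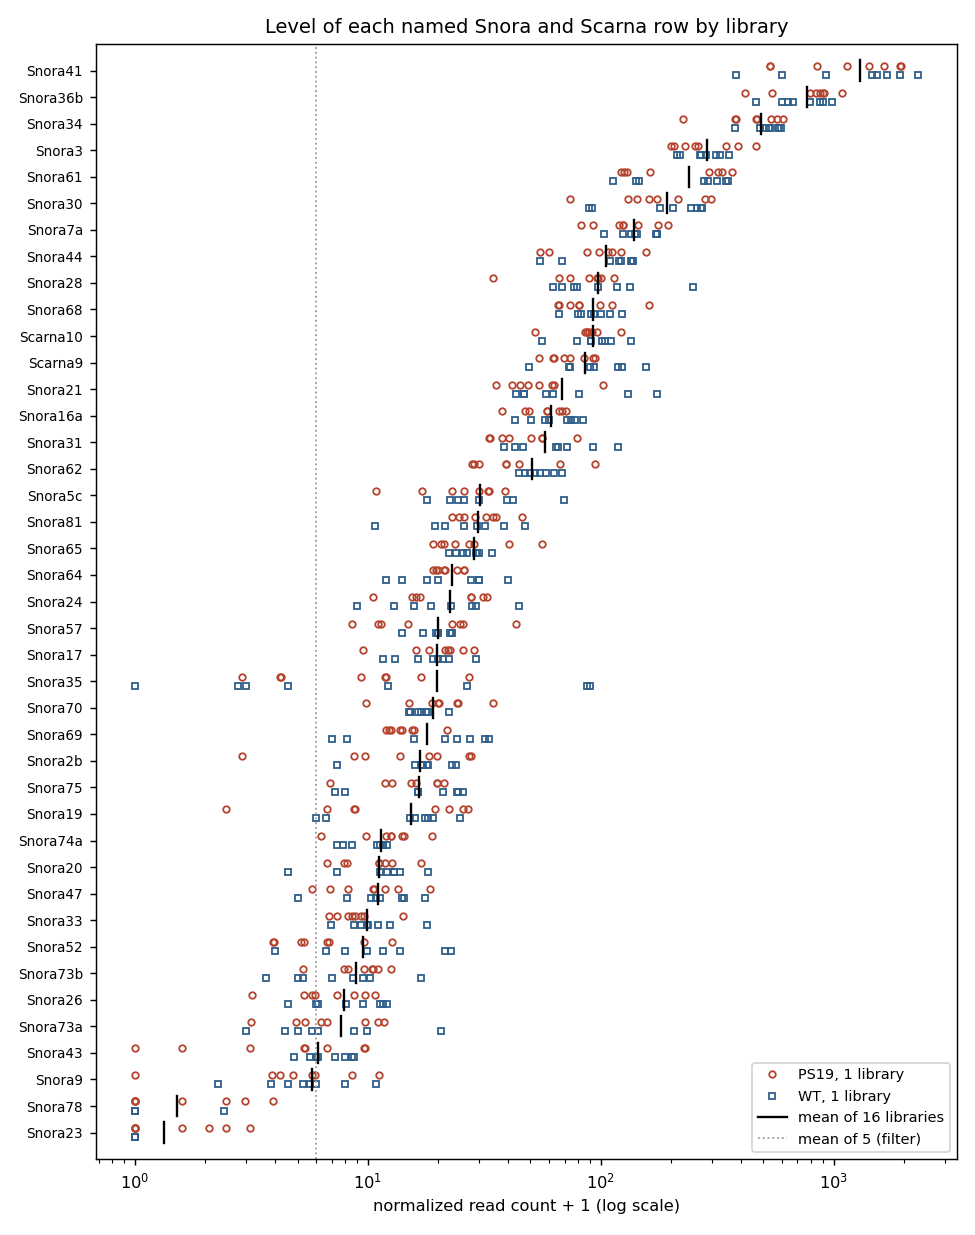
Normalized read count plus 1 (log axis) of the 41 Snora and Scarna rows, ordered by mean, with 1 open symbol per library (circles PS19, squares WT), a bar at the mean of the 16 libraries and a dotted line at the filter mean of 5. Snora41, with a mean of 1302, stands at the top, 3 rows lie below the line, and the symbols of the genotypes overlap in each row with a mean of at least 5.

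Some rows cannot be read as snoRNAs alone, because other rows of the table followed them. Snora36b is the clearest case. The mature miR-664 arms lie in its 3′ part, miR-664-5p at bases 69 to 89 and miR-664-3p at bases 106 to 127, as capitalised above. The mature miRNAs are given with their seeds in capitals, and no 2 of the 4 share a seed.
miR-664-5p: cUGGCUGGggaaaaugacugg
miR-664-3p: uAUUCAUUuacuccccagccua
miR-1291: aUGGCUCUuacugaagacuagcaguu
miR-3084-5p: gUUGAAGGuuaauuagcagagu

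The row of miR-664-5p held 52.6% to 70.6% of the value of Snora36b, depending on the library, and that of miR-664-3p 13.5% to 25.9%. With the precursor row added, the miR-664 rows came to 83.3% to 92.7% of Snora36b. The mean was 88.8% ± 3.05 in PS19 libraries and 89.1% ± 1.62 in WT libraries (SD, n = 8 each). On the log2 scale, Snora36b and miR-664-5p followed each other with r = 0.98 over the 16 libraries, which share their size factors, and with r = 0.97 after scaling to the library total. For miR-664-3p, the less abundant arm, r was 0.79 (0.73 within PS19 and 0.94 within WT) and 0.65 after that scaling. The values do not show whether the same reads were counted under both names. Either way the letters are the same, and most of the level of Snora36b cannot be told apart from that of the miR-664 rows.

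For Snora34 the overlap was smaller. The letters of miR-1291 are its first 26 bases, and miR-1291 with its precursor row came to 32.8% to 55.8% of Snora34. For Snora19 the miR-3084 arms, at bases 71 to 92 and 108 to 128, came to 55.6% to 100% of a low row with a mean of 14.3. None of the 4 miRNAs above passed an unadjusted threshold of 0.05 between genotypes, with two-sided exact permutation p = 0.589 for miR-664-5p, 0.612 for miR-664-3p, 0.277 for miR-1291 and 0.285 for miR-3084-5p.

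**Figure D2:**
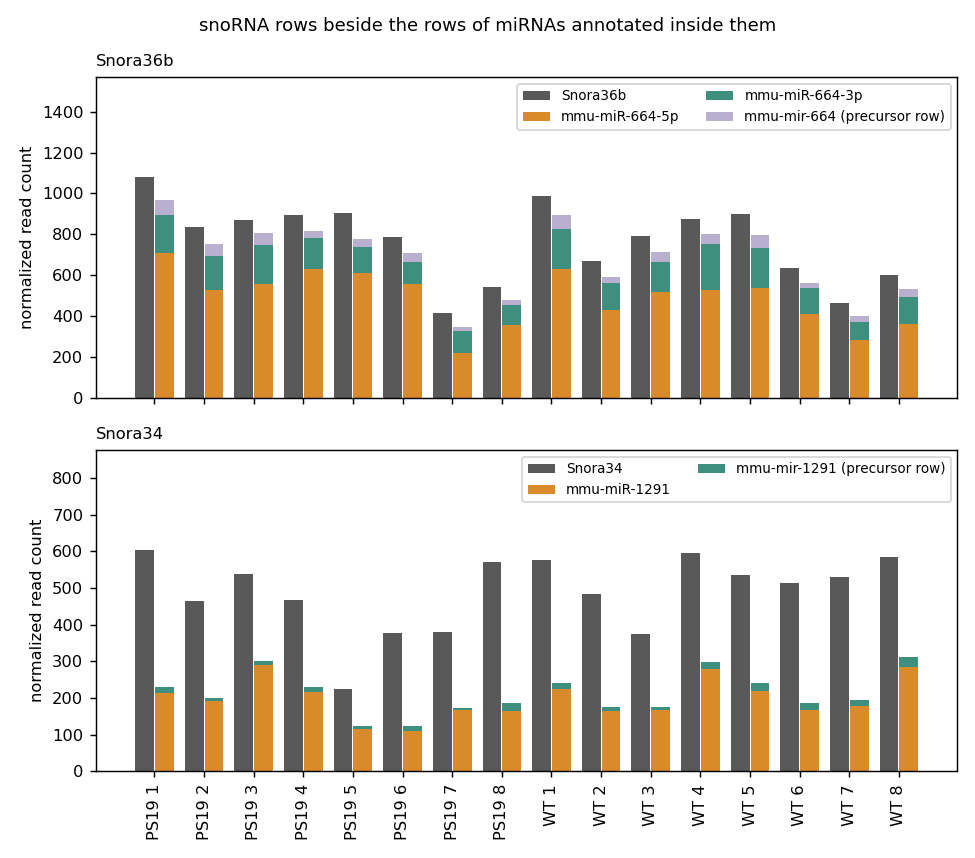
Normalized read count (linear axis from 0) in each of the 16 libraries of Snora36b (top) and Snora34 (bottom) as grey bars, beside stacked bars of the rows of miRNAs annotated inside them. The miR-664 stack reaches 83.3% to 92.7% of the Snora36b bar in each library, the miR-1291 stack 32.8% to 55.8% of the Snora34 bar.

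Near-identical rows, with a Pearson r of at least 0.99 over the 16 libraries and a mean within 2-fold, were found for 3 of the 41. Snora19 was identical to Gm23658. Snora30 (mean 191.9) was followed by Gm25133 (188.5) and by the circRNA rows mmu_circ_0013898 (195.7) and mmu_circ_0013901 (195.3), with r of 0.9988 to 0.9994. Scarna10 (91.6) was followed by mmu_circ_0013080 (96.0) with r = 0.9905. Reads of these rows cannot be assigned to a single name, and Snora16a and Snora43 are in addition annotated at 2 loci each.

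No row of this set passed the adjusted threshold between PS19 and WT. With limma on log2(value + 1), 38 rows with a mean of at least 5 were tested. At an unadjusted p under 0.05, 1 of 38 was lower in PS19 and 0 were higher, against 4.0% of the 6024 features tested, of which 2.14% were lower and 1.86% higher. At an adjusted p under 0.05 there were 0 among the 38 and 0 among all features (0%), and the smallest adjusted p of the 38 was 0.9998. On the recovered reads edgeR gave 1 lower row at an unadjusted p under 0.05 (1.91% of all features were lower) and 0 at an adjusted p. DESeq2 likewise gave 1 lower row (2.36% of all features) and 0 at an adjusted p, where it called 15 of the 6024 features (0.249%). The groups overlapped in all 38 rows, against 0.0996% of tested features without overlap.

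More of the rows had a negative than a positive difference, and this balance was not tested. The median log2 difference (PS19 minus WT) was -0.15 over the 38 rows and -0.02 over all features tested. It was negative for 28 of the 38 (73.7%), against 53.2% of all features tested. The rows come from the same libraries and are not independent of each other. For the 96 tested Snord rows the median was -0.03, with 50 negative, and for the 363 tested snoRNA rows of other names it was -0.11, with 256 negative. Rows with identical values were each counted here. The 95% interval included 0 in 37 of the 38 rows and lay within a log2 difference of 1 in either direction for 32 of them.

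Snora52 was the row with the smallest p-value. It read 2.91 at the lowest, 5.02 at the median and 11.7 at the highest in PS19, and 3.02, 9.76 and 21.9 in WT, from 2 to 23 reads per library. Of the PS19 libraries, 7 of 8 lay below the WT median, while the 3 highest values were all WT and the lowest WT library was level with the lowest PS19 libraries. The log2 difference was -0.76 ± 0.36 (SE), with a limma p of 0.0437 and a two-sided exact permutation p of 0.0572. Its adjusted p by limma was 0.9998. It no longer passed the unadjusted threshold with scaling to the snoRNA class total (-0.74) or with the replicate number as a block (-0.76). Nor did it pass with the code letter (G or another) as a term (-0.61), which sets PS19 against only the 2 WT libraries of letter G. With single libraries omitted in turn it passed 5 of 16 times (without PS19 replicates 2 or 4 or WT replicates 4, 6 or 8) and failed the other 11.

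The next rows by p-value were also lower in PS19. Snora31, inside Tpt1 (a translationally controlled protein), read 32.0, 44.4 and 78.5 in PS19 and 37.3, 64.0 and 117 in WT, which is a log2 difference of -0.45 ± 0.26 (SE, limma p = 0.0999, exact permutation p = 0.0982). Snora43 read 0, 4.35 and 8.78 in PS19 and 3.84, 5.69 and 7.78 in WT (-0.70 ± 0.43, SE, limma p = 0.114, exact permutation p = 0.145). Snora62, inside the ribosomal protein gene Rpsa, read 27.1, 38.2 and 93.4 in PS19 and 43.9, 52.5 and 67.2 in WT (-0.36 ± 0.25, SE, limma p = 0.164, exact permutation p = 0.146). For Snora62, 6 of 8 PS19 libraries lay below the WT range and PS19 replicates 5 and 8 did not, replicate 5 being the highest of all 16.

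Snora21 (inside Rpl23), Snora34, Snora69 (inside Rpl39) and Snora28 had log2 differences of -0.40, -0.25, -0.35 and -0.33, and Snora74a one of 0.27. Their limma p-values ran from 0.192 (Snora21) to 0.274 (Snora74a), and the exact permutation p-values from 0.179 (Snora34) to 0.317 (Snora28). Single libraries moved these values. Without WT replicate 2 or PS19 replicate 5 Snora28 was -0.14 or -0.16, without PS19 replicate 5 Snora34 was -0.12, and without WT replicate 3 Snora21 was -0.22, while without PS19 replicate 4 it was -0.53. Snora69 was -0.23 without WT replicate 1 and -0.55 without WT replicate 6. Snora74a was 0.18 when PS19 replicate 7 was left out and 0.40 when PS19 replicate 4 was. Snora43, above, was -0.41 without PS19 replicate 5, -0.43 with edgeR and -0.30 with a pseudocount of 5. In Snora69 all 8 PS19 libraries lay below the WT median of 21.8, yet the lowest library of the 16, at 6.0, was WT. Among the abundant rows the log2 difference was -0.07 ± 0.37 (SE) for Snora41, 0.08 ± 0.22 for Snora36b and 0.02 ± 0.21 for Snora3. Their 95% intervals were -0.84 to 0.69, -0.38 to 0.54 and -0.42 to 0.47, respectively, and lie within 1 in either direction. With the code letter as a term the difference of Snora41 was -0.53.

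**Figure D3:**
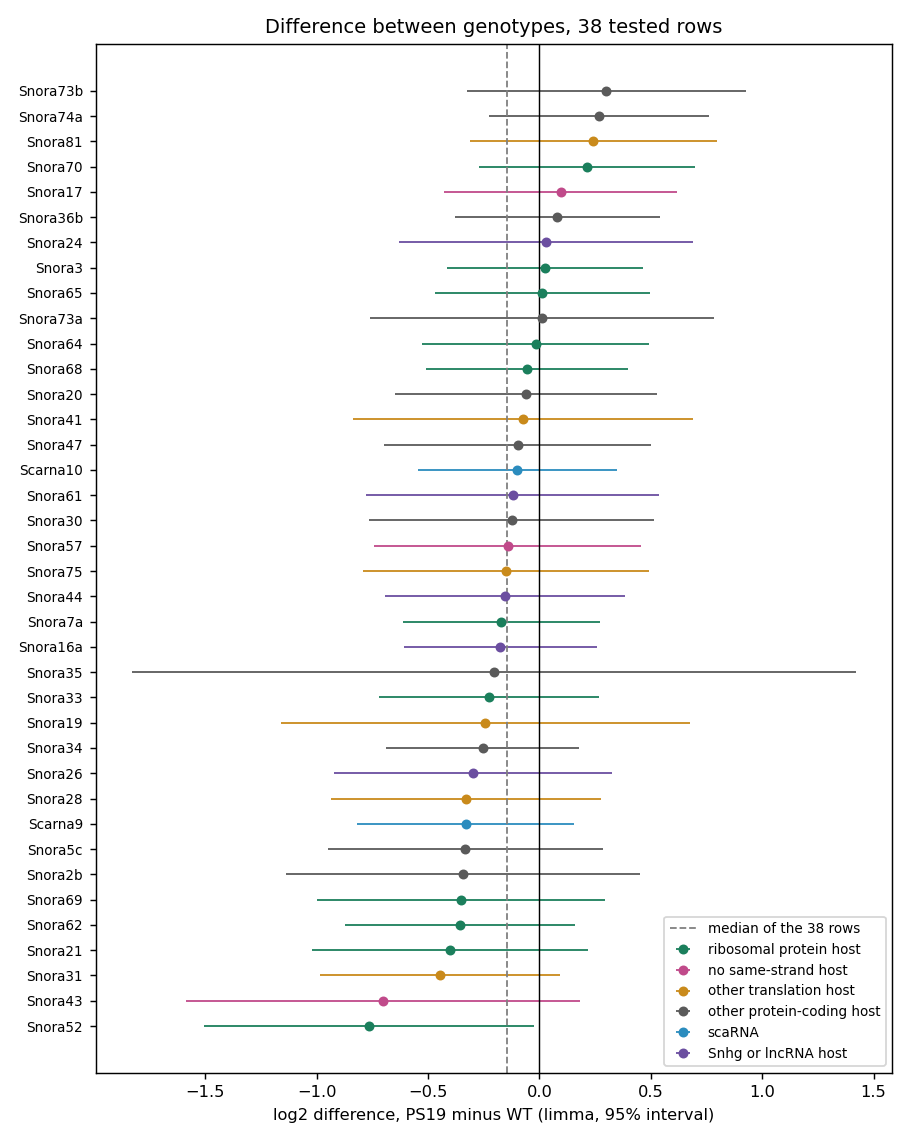
Log2 difference of PS19 minus WT with its 95% interval from limma for the 38 tested rows, ordered by size and coloured by host gene class, with a dashed line at the median. The interval of Snora52 at the low end stays below 0, those of the other 37 cross it, and the median lies at -0.15.

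By host gene class, the median difference was below 0 in each class in this fit. Of 11 rows in ribosomal protein genes, 8 were negative with a median log2 difference of -0.17, and 1 (Snora52) passed an unadjusted p of 0.05. Of 6 tested rows in other genes of translation, 5 were negative (median -0.20). Of 5 tested rows in Snhg genes or long non-coding RNAs, 4 were negative (median -0.15), and of 11 rows in other protein-coding genes, 7 were negative (median -0.10). The 3 rows without a host gave 2 negative values (median -0.14). Of the 27 rows of the other classes and of Scarna names, 0 passed the unadjusted threshold, against 4.0% of all features tested. The classes were not tested against each other.

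Rows of the same host gene differed in level in Kansl2 and Snhg12 but hardly in Rcc1. Host expression was not measured in these libraries. Rcc1 holds Snora73a at 3.25 and Snora73b at 3.84 normalized counts per 100 bases. Kansl2 holds Snora34 at 354 and Snora2b at 11.5 normalized counts per 100 bases, and the ratio of Snora34 to Snora2b ranged from 17.5 to 198 over libraries. The highest ratio, in PS19 replicate 6, rests on 2 reads of Snora2b. Snhg12 holds Snora61 at 184, Snora44 at 80.7 and Snora16a at 43.8 per 100 bases. By host class, the median level per 100 bases was 21.3 for ribosomal protein hosts (6.23 to 217.1), 16.1 for other translation hosts (0.179 to 986), 16.5 for Snhg or long non-coding hosts (0.408 to 183.6), 11.5 for other protein-coding hosts (3.25 to 581) and 12.9 for rows without a host (3.68 to 14.3). These ranges overlapped.

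Snora61 fell into 2 separate levels that did not follow genotype. It read 112 to 162 in 7 libraries (PS19 replicates 1 to 4 and WT replicates 1 to 3) and 276 to 367 in the other 9 (PS19 replicates 5 to 8 and WT replicates 4 to 8), with none in between. After scaling to the library total the same 7 read 97.5 to 128 and the other 9 read 286 to 457. The PS19 mean was 231 ± 106 (SD, n = 8) and the WT mean 247 ± 98.4 (SD, n = 8), with limma p = 0.708 and exact permutation p = 0.778. Snora44, inside the same host, was mostly higher where Snora61 was low, at 97.4 to 156 in those 7 libraries and 54.0 to 121 in the other 9, and 86.5 to 131 and 67.4 to 132 after scaling to the library total. The ratio of the 2 rows therefore takes in both. Snora61 was 0.824 to 1.34 times Snora44 in those 7 libraries and 2.28 to 6.50 times in the other 9. Snora16a, the remaining row of Snhg12, stayed between 36.8 and 82.7 in all 16. These levels were seen in the data, and no test was run on them. The labels name no batch. Within each group the levels followed the replicate number, low at the first numbers and high at the later ones. What that number stands for is not given in the labels.

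Snora41 and Snora44 rose and fell together over libraries. Their log2 values gave r = 0.92 over 16 libraries (0.95 within PS19 and 0.90 within WT), and r = 0.78 after scaling each library to its total. Before that scaling it was the highest of the 210 pairs among the 21 rows with a mean of at least 20, for which the median r was 0.23. After it, Snora28 and Snora5c gave a higher r of 0.86 (0.90 before). Snora41 also followed miR-9-5p and miR-124-3p, from the list of 4 brain miRNA markers, with r = 0.87 for each (0.76 and 0.74 after scaling to the total). The other markers of that list were not compared. The log2 size factor of the library went with Snora41 at r = -0.65, and at -0.54 after scaling to the total. The part of library composition in these relations was not tested.

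**Figure D4:**
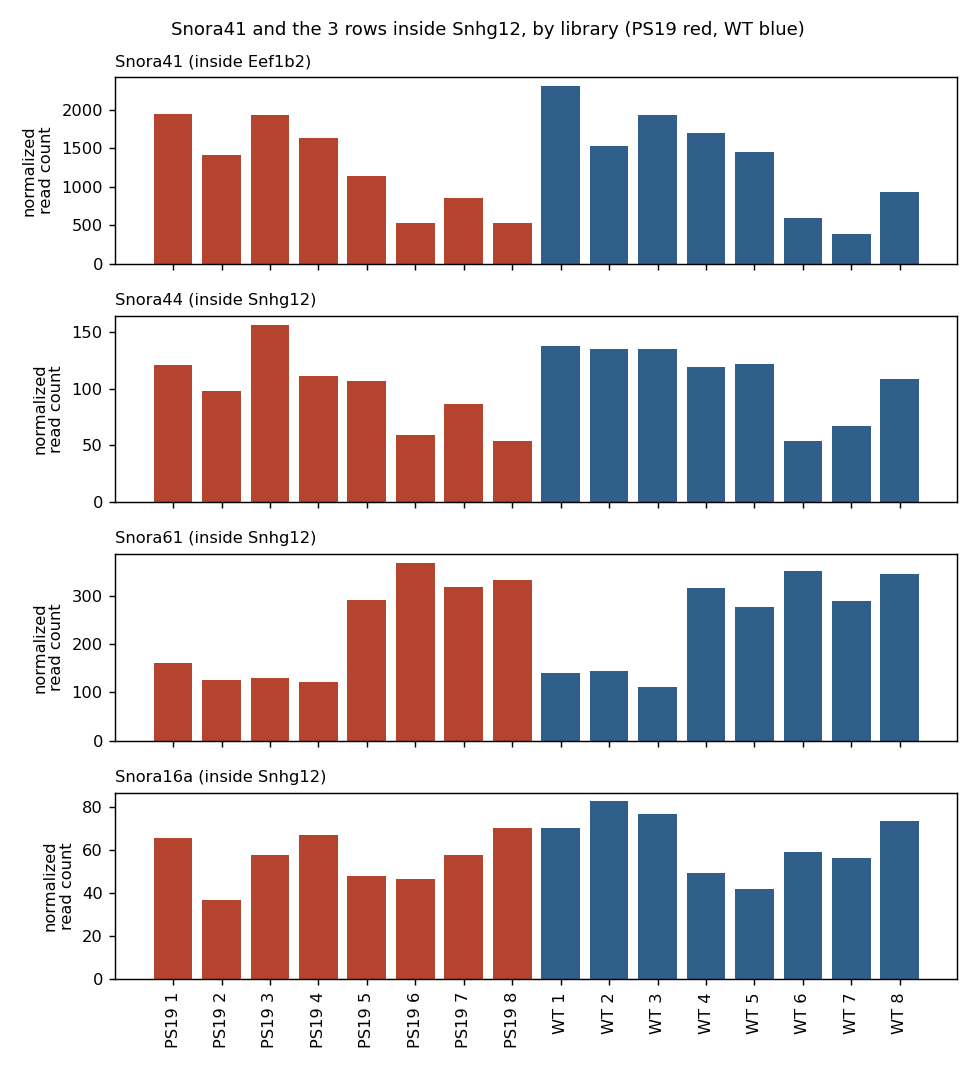
Normalized read count (linear axes from 0) of Snora41 and of Snora44, Snora61 and Snora16a, which lie inside Snhg12, in the 8 PS19 (red) and 8 WT (blue) libraries. Snora61 sits at 112 to 162 in 7 libraries of both genotypes and at 276 to 367 in the other 9, while Snora44 and Snora41 are high together.

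Snora35 was the least even of the 38 tested rows. Its values were 26.2, 3.25, 15.9, 3.2, 10.8, 1.90, 8.33 and 11.0 in PS19 replicates 1 to 8. In WT replicates 1 to 8 they were 25.6, 89.4, 86.4, 0, 1.78, 2.0, 3.54 and 11.2. The 2 highest libraries were both WT and so was the single library without a read, in which a count of 0 allows up to 3 reads. The log2 difference was -0.20 ± 0.78 (SE, limma p = 0.797, exact permutation p = 0.827), with a 95% interval of -1.83 to 1.422, so a change of 2-fold in either direction was not detectable. On the recovered reads the log2 difference was -1.5 by edgeR and -1.46 by DESeq2, neither past the unadjusted threshold, and by limma it was -0.68 without WT replicate 4, and turned to 0.25 and 0.24 without WT replicates 2 and 3, respectively.

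Several miRNAs share the introns of Htr2c with Snora35, and their rows varied likewise. With Snora35 they gave r = 0.82 for miR-1264-5p, 0.81 for miR-1298-3p, 0.79 for miR-1264-3p, 0.74 for miR-1298-5p, 0.72 for miR-448-3p, 0.62 for miR-448-5p and 0.54 for miR-1912-3p, over 16 libraries on the log2 scale. The choroid plexus marker miR-204-5p gave r = 0.56. WT replicate 3, with 86.4 for Snora35, read 8530 for miR-1298-5p and 4144 for miR-204-5p. PS19 replicate 3 had the highest values of both (12300 and 6592) with a Snora35 of 15.9. WT replicate 2, the highest for Snora35, read 1678 for miR-204-5p. The share of choroid plexus in the dissected pieces was not tested as a source of Snora35.

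**Figure D5:**
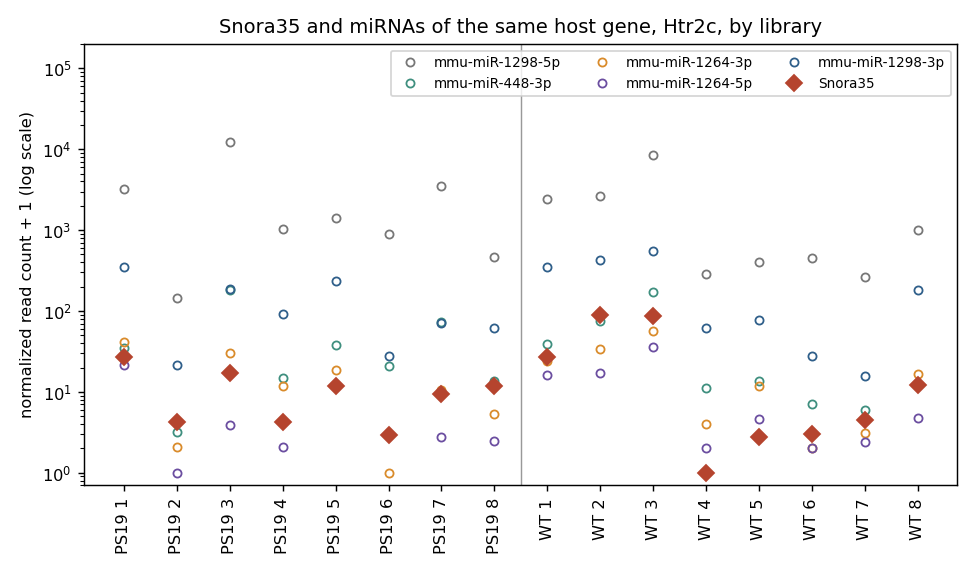
Normalized read count plus 1 (log axis) of Snora35 (filled diamonds) and of 5 miRNA rows from introns of the same host gene (open circles) in 8 PS19 libraries (left of the line) and 8 WT libraries (right). Snora35 spans 0 to 89.4 and is highest in WT replicates 2 and 3, where the miRNA rows are also high.

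Neither of the Cajal body RNAs passed the unadjusted threshold. Scarna9, a guide of 2′-O-methylation in the U2 snRNA, read 53.5 at the lowest, 70.7 at the median and 93.1 at the highest in PS19, and 48.3, 90.7 and 156 in WT. Its WT libraries covered the whole PS19 range, and 6 of 8 PS19 libraries lay below the WT median. The log2 difference was -0.33 ± 0.23 (SE, limma p = 0.171, exact permutation p = 0.138), with a 95% interval of -0.82 to 0.15. It was -0.46 without WT replicate 4, -0.22 without WT replicate 3 and -0.09 with the code letter as a term. Scarna10, the U85 RNA that guides both kinds of modification in U5, read 51.1, 87.6 and 122 in PS19 and 55.3, 94.99 and 134 in WT (log2 difference -0.10 ± 0.21, SE, limma p = 0.645, exact permutation p = 0.582).

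Snora73a and Snora73b, the U17 RNAs, act in the cleavage of the 18S rRNA precursor rather than as guides. Both were low here, with means of 6.67 and 7.88 normalized counts from 2 to 21 and 3 to 17 reads per library. Snora73a read 2.17, 5.51 and 10.7 in PS19 and 2.0, 4.94 and 19.6 in WT (log2 difference 0.01 ± 0.37, SE, limma p = 0.973, exact permutation p = 0.975). For Snora73b the values were 4.27, 9.07 and 11.6 in PS19 and 2.67, 6.85 and 15.9 in WT (0.30 ± 0.30, SE, limma p = 0.332, exact permutation p = 0.309), and the difference was 0.15 without WT replicate 5 and 0.47 without WT replicate 8. The 2 are near copies in a tandem, and how reads that fit both were assigned is not given in the sources used here.

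The RNAs that the Cajal body guides act on gave 1 row with an unadjusted p under 0.05 among 9 tested rows named Rnu of snRNA type (11.1%, against 4.0% of all features tested). Rnu12, the U12 snRNA of the minor spliceosome, read 337 to 1205 in PS19 and 267 to 381 in WT, with a log2 difference of 0.66 (limma p = 0.0109, exact permutation p = 0.0028, adjusted p by limma 0.9998). The other 8 were not past the unadjusted threshold, and U2 and U5 rows were among them. Another 6 Rnu rows (3 of them distinct) are snoRNAs by annotation (U3 and Rnu73b) and gave 0 such rows, as did 96 tested Snord rows. The 363 tested snoRNA rows of other names gave 17 lower and 5 higher in PS19 (6.06%). Identical rows were each counted, and of all 686 rows of that kind, tested or not, 467 were distinct. The telomerase RNA, which is also of the H/ACA class, had no row here (0).

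The remaining 3 rows had a mean below 5 and were not tested. Snora9 had a mean of 4.75. Snora78 was read in 5 libraries with at most 2 reads. Snora23, inside Ipo7 (an importin that carries ribosomal proteins), was read in 4 PS19 libraries with 1 or 2 reads each and in 0 WT libraries. With no filter on low values, 2 of the 41 rows passed an unadjusted p under 0.05 (3.98% of 17088 features did), Snora52 and Snora23, the latter with limma p = 0.0247 and exact permutation p = 0.0769. A count of 0 allows up to 3 reads in a single library, a limit that does not apply to a whole group. At 1 or 2 reads in 4 libraries, Snora23 was too low for a difference between genotypes to be judged.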

How the data were processed

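Small RNA libraries (NEBNext Multiplex Small RNA set) were sequenced single-end from 8 PS19 and 8 WT prefrontal cortices. In the methods of the study, alignment and counting by the authors used COMPSRA, and their processing notes name STAR 2.5.3a, DESeq2 1.42.1 and mm10. The deposited values are a normalized signal, counts divided by a size factor per library. Whole reads were recovered by division, and 100% of values were whole within 0.01, although 2 WT libraries (replicates 4 and 6), whose step is near 1, rest on weaker evidence. Deposited log2 fold changes with errors, Wald scores and p-values hold the authors' own comparison and were not used. All library columns were used (0 unused).

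Features with a mean of at least 5 (6024) were fitted by limma 3.58.1 (lmFit, eBayes with trend) on log2(value + 1) with genotype as the only term. Log2 differences are on that scale, which understates changes of low rows. Two-sided p-values were corrected over these 6024 by Benjamini-Hochberg. Exact permutation tests used the 12870 assignments of 8 and 8 libraries. The fit was checked on simulated data, where it recovered most of the larger changes but missed most of the smaller, so the absence of an adjusted call does not show that a row was unchanged. Over 56 pairs of libraries within a group, chi-square per degree of freedom was at least 45.5, so no pair looked like a library deposited more than once. The 95% intervals of log2 differences cover the spread between mice, and limits from a count of 0 cover counting error only.

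Named rows were the 10 with the smallest p, the 10 with the highest mean, Scarna rows, Snora73a, Snora73b and Snora35. Others, such as Snora2b, Snora16a, Snora19, Snora23 and Snora78, were named after their values were seen, as were Rnu12 and the pairs of rows compared over libraries. The members, lists and tests were chosen with earlier results of these data known. Positions and sequences come from GENCODE M21 (GRCm38), miRNAs from RefSeq (GRCm38.p6). Alternatives were edgeR 4.0.16 and DESeq2 1.42.0 on recovered reads, other scalings, filters, pseudocounts of 0.5 and 5, a replicate block, the library code letter and leaving out each library.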

Additional observations from a re-analysis of the deposited data

Results flagged for a closer look

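In 4 of 46 groups of 8 libraries examined, 1 library lay far above the rest of its group by a gap test (Dixon's), where chance alone gives about 1 in 20, or 2.3. Snora21 read 101 in PS19 replicate 4, against 62.2 in the next library. Snora28 read 248 in WT replicate 2, against 133 in the next, and without it the log2 difference of that row went from -0.33 to -0.14. Snora69 read 20.8 in PS19 replicate 7, against 14.7 in the next, and lowered the difference between genotypes in that row. Snora73a read 19.6 in WT replicate 8, against 8.91 in the next. The 4 fell in 4 different libraries.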

How the results depend on the processing

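No row passed an adjusted p under 0.05 in any of the 10 alternative settings or the 16 fits that left out a library. At an unadjusted p the count of 1 became 0 with scaling to the snoRNA class total, where 6.44% of the 497 snoRNA class rows in that fit passed. It was also 0 with a mean of at least 20 (5.42% of 2510 features), which leaves out Snora52. With the code letter as a term it was 0 (1.98% of 6024), and with no filter 2 (3.98% of 17088). It ranged from 0 to 2 when each library was left out (2.84% to 5.33% of all features), the extra or replacing rows being Snora31 and Snora62. The median log2 difference stayed negative, from -0.33 with the code letter as a term to -0.1 with edgeR, and from -0.22 to -0.08 with a library left out. The difference in summed share (PS19 minus WT, in percent of all signal) was -0.00151, and -0.00159 on a per-length scale. It became -0.00052 without WT replicate 4 and -0.00231 without WT replicate 7.

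The sign changed in 8 of the 22 named rows, none of them past a threshold. Snora73a was -0.1 with edgeR, -0.13 with DESeq2 and -0.01 with a pseudocount of 5, Snora68 was 0.01 with edgeR, and with the code letter as a term Snora3 was -0.11 and Snora36b -0.01. With a library left out, values ran from -0.21 to 0.01 for Scarna10, -0.08 to 0.09 for Snora3, -0.27 to 0.05 for Snora30, -0.68 to 0.25 for Snora35, -0.01 to 0.2 for Snora36b, -0.3 to 0.08 for Snora41, -0.18 to 0.01 for Snora68 and -0.15 to 0.24 for Snora73a. Without a change of sign, Snora35 was -1.5 with edgeR and -1.46 with DESeq2, against -0.2 by limma, and Snora62 -0.2 and -0.23, against -0.36. With edgeR Snora43 was -0.43, against -0.7, and Snora61 -0.05 and Snora7a -0.11, against -0.12 and -0.17. With a pseudocount of 5 Snora43 was -0.3, Snora35 -0.39 and Snora73b 0.18, against 0.3, and with one of 0.5 Snora35 was -0.09. With the code letter as a term Snora28 was -0.82, Snora69 -0.84, Snora41 -0.53, Snora44 -0.43, Snora30 -0.38, Snora7a -0.26, Scarna10 -0.25 and Snora73a 0.34, all farther from 0, while Snora31 (-0.25), Scarna9 (-0.09), Snora61 (-0.04) and Snora68 (-0.02) were nearer to it. All 8 PS19 libraries carry the letter G, so in this fit the difference is that of PS19 from the 2 WT libraries of letter G. The other WT libraries do not enter it. Of 213 comparisons of a named row with an alternative setting, 203 kept direction and side of the threshold.

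The replicate numbers are shared by the groups, but same-numbered libraries deviated together with r from 0.04 to 0.46, and only 2 of 8 PS19 libraries matched their own number best, so the numbers were not taken as pairs. With the replicate number as a block the count was 1, but the row was Snora31 (-0.45) and not Snora52 (-0.76), and the share of all features passing rose from 4.0% to 6.96% (419 of 6024, against 241). The 17 rows with a mean between 5 and 20 rest on low counts, and the part of depth in their spread was not tested. The code letter cannot be separated well from genotype, since all 8 PS19 and only 2 WT libraries carry the letter G.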
